A study of Mus musculus with 28 samples.

Results

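The cerebellum of Ts1Cje mice was set against that of euploid mice at postnatal day 7 (P7) on 4 two-colour arrays out of the 28 of the study. They were chosen by their source names, which give a P7 Ts1Cje cerebellum in one channel and a P7 euploid cerebellum in the other. Each array held RNA from 1 mouse of each genotype, so that 4 Ts1Cje and 4 euploid mice were measured, all labelled with the strain B6EiC3SnF1/J A/a. Ts1Cje mice carry an extra copy of the distal end of mouse chromosome 16 (Mmu16), from Sod1 to Zbtb21 (formerly Znf295), joined to the telomeric end of chromosome 12 (Mmu12). A small telomeric segment of Mmu12 is missing from the rearranged copy. Its gene content was taken from the study. Euploid mice have both copies of each segment. According to the series record each array paired a male with a female, and the labels do not give the sex of either. Ts1Cje RNA was labelled with Cy3 on arrays 1 and 2 and with Cy5 on arrays 3 and 4. Array 4 carries a conflicting stage label of P3 for its euploid mouse and was kept at P7 by its source name, and the three-copy counts are given with and without it.

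Ts1Cje is a mouse model of Down syndrome, in which many of the genes with a counterpart on human chromosome 21 are present in an extra copy. In the simplest case a gene in 3 copies gives 1.5 times as much messenger RNA as a gene in 2 copies, a log2 ratio of 0.58 (the full copy effect below), while feedback on transcription or on RNA stability can make the ratio smaller. At P7 the mouse cerebellum is still being built: granule cell precursors divide in the external granule layer under the control of Sonic hedgehog released by Purkinje cells, and their daughters leave the cycle and migrate inwards along Bergmann glia. Only ratios were measured, and in whole tissue a difference in the number of cells of a type and a difference in RNA per cell cannot be told apart. Of 13 genes known for cerebellar cell types, 11 were on the array and 9 had a value on all 4 arrays. These arrays report no level in either genotype.

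The arrays had values for between 21583 and 22643 of the 25344 probes. Averaged by gene symbol, 21013 genes and unnamed probes had a value on at least 3 of the 4 arrays and were tested, 17385 of them with a symbol. The arrays differed in spread, with a standard deviation of log2 ratios of 0.52, 1.02, 0.80 and 0.54 on arrays 1 to 4. Array 4, the one with the conflicting label, had the smallest scaled median absolute deviation of the 4 (0.25). Over the study this spread lay between 0.25 and 0.96 on same-stage arrays and between 0.32 and 1.36 on mixed-stage arrays. These ranges overlap. On the arrays that paired a P3 with a P7 mouse it was 0.65, 0.66, 0.77 and 0.76. The stage of the euploid mouse of array 4 was not tested. Over all genes, arrays with the same dye orientation correlated weakly and positively (Pearson r = 0.13 for arrays 1 and 2, 0.08 for arrays 3 and 4), and arrays of opposite orientation weakly and negatively (r between -0.14 and -0.10). Xist, the noncoding RNA that silences one X chromosome in females, gave log2 ratios of -3.13, 5.03, -3.81 and 3.67 on arrays 1 to 4. The sign of Xist thus changed between the arrays within each dye orientation, and the Y-linked Kdm5d, a histone demethylase, ran the other way with 1.64, no value, 1.33 and -1.49. Each direction of the Xist ratio and each dye orientation was thus present on 2 of the 4 arrays.

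No gene (0.0% of those tested) passed an adjusted p below 0.05 at P7 (limma on the 4 arrays with Benjamini-Hochberg adjustment, smallest adjusted p = 0.99). At an unadjusted p below 0.05, 312 genes were higher and 215 lower in Ts1Cje cerebellum. Together they were 2.51% of those tested (1.48% higher and 1.02% lower), fewer than the 5% that this threshold passes by chance. The largest estimates were therefore read against the 4 single values and against other mice, not as a list of changed genes. With 4 arrays an exact sign-flip test of 1 gene cannot go below p = 0.125. The median 95% confidence interval was 1.09 log2 units wide, wider than the 0.58 of a full copy effect.

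Most of the results below turn on a few genes of the rearranged chromosomes. Promoters of 6 of them are shown to place each gene and its neighbours. They are given as the 250 bases before an annotated start, from 5′ to 3′, in the RefSeq annotation of GRCm38.p6. Each GC box (GGGCGG or its reverse complement CCGCCC) is in capitals. The GC box is bound by the Sp family of transcription factors, of which Sp4 and Sp8 are encoded in the lost Mmu12 segment.
Sod1: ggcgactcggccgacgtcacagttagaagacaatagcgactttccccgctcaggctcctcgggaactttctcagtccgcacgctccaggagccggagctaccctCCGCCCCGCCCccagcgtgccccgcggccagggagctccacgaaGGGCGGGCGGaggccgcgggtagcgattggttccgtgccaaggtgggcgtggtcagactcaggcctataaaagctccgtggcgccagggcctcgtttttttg
Tmem50b: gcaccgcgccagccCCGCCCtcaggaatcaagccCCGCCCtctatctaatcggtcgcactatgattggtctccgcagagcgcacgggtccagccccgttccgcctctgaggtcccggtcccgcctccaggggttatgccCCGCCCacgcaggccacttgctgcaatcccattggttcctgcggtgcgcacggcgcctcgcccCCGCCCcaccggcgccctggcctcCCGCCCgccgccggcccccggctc
Son: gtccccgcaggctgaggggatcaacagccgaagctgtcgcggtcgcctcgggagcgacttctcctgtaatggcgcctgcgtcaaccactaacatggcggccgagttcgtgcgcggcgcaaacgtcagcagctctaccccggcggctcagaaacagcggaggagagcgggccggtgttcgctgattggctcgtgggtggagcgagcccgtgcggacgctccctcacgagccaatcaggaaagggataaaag
Atp5o: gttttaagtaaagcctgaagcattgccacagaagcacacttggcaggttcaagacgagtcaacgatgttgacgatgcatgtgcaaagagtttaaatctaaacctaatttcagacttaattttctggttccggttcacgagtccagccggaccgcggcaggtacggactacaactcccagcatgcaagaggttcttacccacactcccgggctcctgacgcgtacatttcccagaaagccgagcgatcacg
Cdca7l: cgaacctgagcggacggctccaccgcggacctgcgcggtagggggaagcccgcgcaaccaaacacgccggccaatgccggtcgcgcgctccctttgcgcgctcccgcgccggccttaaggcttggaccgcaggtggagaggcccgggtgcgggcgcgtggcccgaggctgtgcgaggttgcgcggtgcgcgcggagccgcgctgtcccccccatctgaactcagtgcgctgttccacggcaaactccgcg
Dnah11: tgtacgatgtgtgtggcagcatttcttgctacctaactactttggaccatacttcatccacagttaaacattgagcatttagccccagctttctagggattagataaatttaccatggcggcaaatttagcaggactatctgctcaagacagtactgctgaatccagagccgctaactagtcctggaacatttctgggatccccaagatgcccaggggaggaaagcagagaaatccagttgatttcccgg
The first 4 are three-copy genes on Mmu16. They lie at chr16:90220512-90220761 on the plus strand for Sod1, chr16:91597681-91597930 on the minus strand for Tmem50b, chr16:91647574-91647823 on the plus strand for Son, and chr16:91931631-91931880 on the minus strand for Atp5o. Cdca7l (chr12:117843611-117843860, plus strand) and Dnah11 (chr12:118199044-118199293, minus strand) face each other on Mmu12, and their annotated ends share 731 bases. The Cdca7l window lies inside the annotated gene, which begins at chr12:117843475. It is therefore not the sequence before the outermost start of that gene. The Sod1 promoter held 4 GC boxes and the Tmem50b promoter 5, counting both strands and overlapping matches, while those of Son, Atp5o, Cdca7l and Dnah11 held 0 in this window. A GC box was found in 41 of 80 promoters (51.3%) of the three-copy genes tested, for 57 of which the table held a promoter. In the whole table it was found in 32.7% of 32851 promoters. The whole table was not limited to genes tested on the array, so these shares are not matched. Their difference was not tested. A match of letters does not show binding.

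The first question was whether the genes in 3 copies were higher in Ts1Cje cerebellum at P7. Of 163 annotated genes between Sod1 and Zbtb21, 74 were on the array and 72 could be tested, the other 2 (Ifngr2 and 2410124H12Rik) having fewer than 3 values. Their median log2 ratio was 0.14, against -0.01 for all genes tested. Of the 72 genes, 48 (66.7%) lay above 0, against 48.0% of all genes tested. The medians of the single arrays were 0.09, 0.04, 0.21 and 0.16, all above 0 and all below the 0.58 of a full copy effect. With unadjusted p below 0.05, 8 of the 72 were higher (1.48% of all genes tested were), and 0 were lower. No three-copy gene passed the adjusted threshold.

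Sod1, the copper-zinc superoxide dismutase that removes superoxide from the cytosol, is the first gene of the segment. Its log2 ratios were 0.91, 0.82, 1.43 and 0.54 on arrays 1 to 4, a mean of 0.93 ± 0.37 (SD, n = 4) or 1.90-fold (95% interval 1.36 to 2.66, limma, unadjusted p = 0.0042, adjusted p = 0.99). All 4 arrays were above 0, and 3 of them above 0.58. Son encodes a large nuclear speckle protein needed for splicing. It was measured by 2 probes, which gave 0.94, 1.04, 0.31 and 0.61 for the first and 0.98, 1.36, 0.58 and 0.46 for the second. The 2 probes thus ranked the same pair of arrays, those with Ts1Cje on Cy3, above the other pair. Their mean was 0.78 ± 0.35 (SD, n = 4) or 1.72-fold (95% interval 1.24 to 2.39, limma, unadjusted p = 0.0077, adjusted p = 0.99).

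Tmem50b, a membrane protein of the early secretory pathway, gave 0.49, 1.33, 0.93 and 0.33, a mean of 0.77 ± 0.45 (SD, n = 4). Mrps6, a protein of the mitochondrial ribosome, gave 0.55, 0.48, 0.77 and 0.32, a mean of 0.53 ± 0.19, the smallest SD of the 8 genes. Atp5o, the subunit of the mitochondrial ATP synthase that joins its catalytic head to the stalk, gave 0.32, 0.49, 1.02 and 0.39, a mean of 0.56 ± 0.32. All these values were positive, and the estimates of Mrps6 and Atp5o lay next to the 0.58 of 3 copies against 2. Paxbp1, which takes part in muscle progenitor growth, gave 0.84, 0.49, 0.25 and 0.29. Kcnj6 (Girk2), a G protein-gated potassium channel of granule cells and other neurons, gave 0.75, 0.40, 0.19 and 0.38. In both genes array 1 was the highest and all 4 arrays were above 0. Get1, which inserts tail-anchored proteins into the endoplasmic reticulum membrane, had a mean of 0.85 ± 0.69, but its 2 probes disagreed: 3.19, 1.71, -0.69 and 1.54 for one, and 0.29, -0.03, 0.79 and -0.02 for the other. The unadjusted p of the 8 genes ran from 0.0042 for Sod1 to 0.037 for Kcnj6.

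Of 59 three-copy genes with a value on all 4 arrays, 16 (27.1%) were above 0 on every array and 0 were below 0 on every array. Over all genes with 4 values, 4.81% were above 0 and 5.15% below 0 on every array. The other 8 genes of this kind did not pass the unadjusted threshold. Among them, Gart, an enzyme of purine synthesis, gave 0.06, 0.27, 1.11 and 0.50. Ttc3, a ubiquitin ligase that acts on Akt, gave 0.58, 0.87, 0.30 and 0.08, but its 2 probes had opposite signs on arrays 3 and 4. There the first probe of Ttc3 gave -0.20 and -0.10 and the second 0.81 and 0.25. Dyrk1a, a kinase that holds neural precursors back from the cell cycle, gave 0.74, 0.23, 0.41 and 0.03, a mean of 0.35 ± 0.30. For Gart, Ttc3 and Dyrk1a alike the lowest array lay close to 0 while the highest was above 0.58. Synj1, a synaptic vesicle phosphatase, averaged 0.30, Olig1, a transcription factor of the oligodendrocyte lineage, 0.32, and Ifnar1, a subunit of the type I interferon receptor, 0.35. Ets2, a transcription factor, averaged 0.14 and B3galt5, a glycosyltransferase, 0.22, and the 2 probes of B3galt5 had opposite signs on 3 arrays.

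The most extreme estimates in the segment, in both directions, were uneven over the arrays. The highest mean, 1.07 for 2310043M15Rik, rested on array 2, with 0.25, 4.17, 0.10 and -0.24. Kcne2, a potassium channel subunit, gave 0.34, 1.56, 3.09 and -0.82, highest on array 3. Neither passed the unadjusted threshold. Tmprss2, a membrane serine protease, gave -1.55, -0.05, -1.82 and 0.19. Dscam, an adhesion molecule that guides neurites, had a mean of -0.60 that rested on array 2, where one of its probes gave -5.83 and the other 0.33. Without array 2 its mean was 0.12. Of the 72 genes, 30 had an upper 95% limit below 0.58, 8 had a lower limit above 0 and 0 had a lower limit above 0.58. For 34 genes the interval held both 0 and 0.58. The upper limit was below 0.58 for 56.9% of all genes tested.

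Divided into 3 equal parts in chromosomal order, the 24 genes from Sod1 to Atp5o had a median of 0.27 with 19 above 0. The 24 from Slc5a3 to Ttc3 had a median of 0.12 with 13 above 0, and the 24 from Vps26c to Zbtb21 a median of 0.10 with 16 above 0. Of the 8 genes named above, 5 lay in the first part. The difference between the parts was not tested. The 64 protein-coding members had a median of 0.14 and the 8 of other biotypes a median of 0.04. Of a list of 30 Mmu16 genes outside the segment, which both genotypes have in 2 copies, 28 could be tested. Their median was 0.02, 15 lay above 0, and 0 passed the unadjusted threshold.

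**Figure D1:**
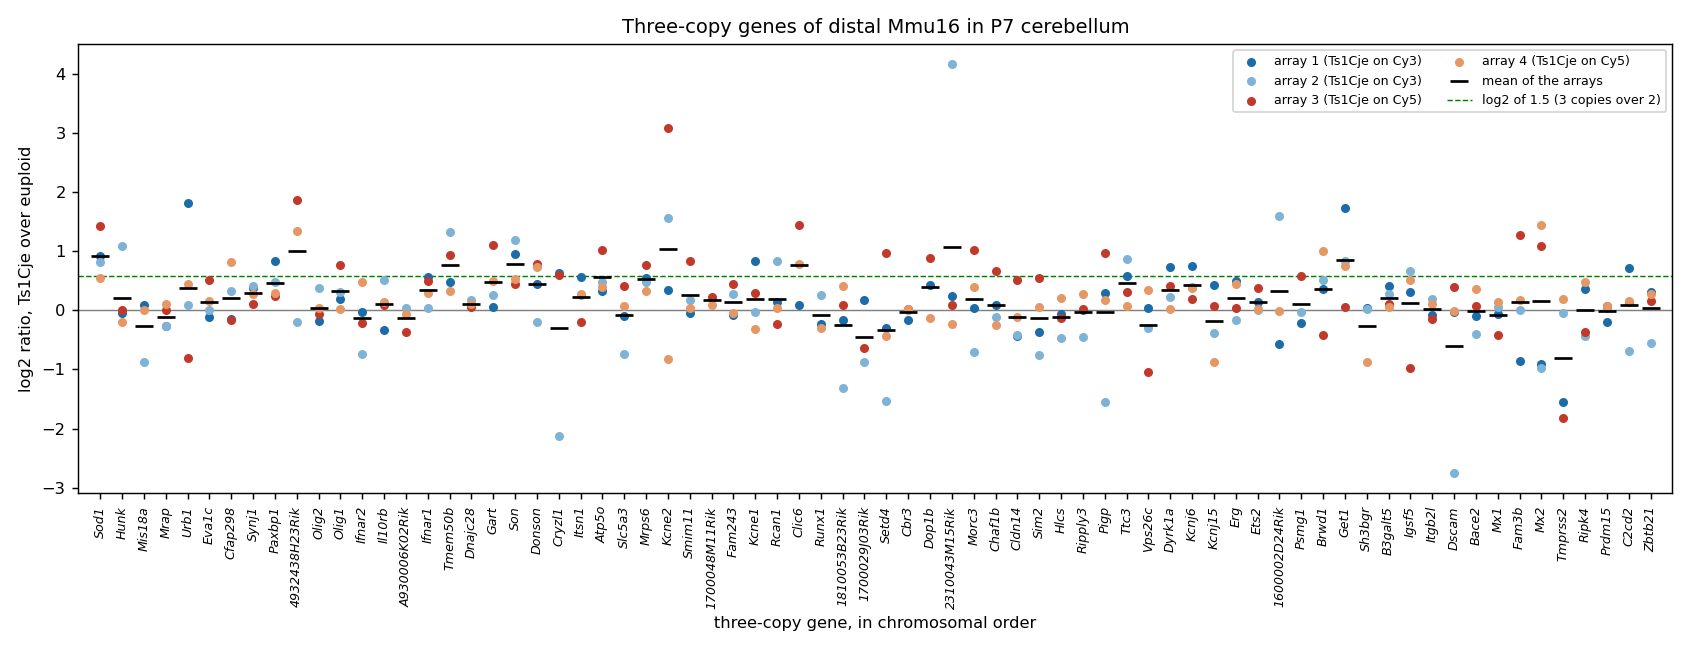
Log2 ratios (Ts1Cje over euploid, y axis) of the 72 three-copy genes tested, in chromosomal order on the x axis. Points are the 4 P7 arrays coloured by array and dye, black bars their mean, and the dashed line the 0.58 of 3 copies over 2. Of the 72 means, 48 lie above 0 and 8 at or above the dashed line, and on array 2 the values of 2310043M15Rik (4.17) and Dscam (-2.75) stand apart.

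The list count of 8 depended on which arrays were used. Without array 1 it was 5 and without array 4 also 5, and 4 of the 8 genes remained in each case. Without array 2 it was 9, with 5 of the 8 remaining, and without array 3 it was 8, with 6 remaining. Get1, Kcnj6 and Paxbp1 lost their calls without array 1, without array 2 and without array 4. Atp5o lost its call without array 3 and without array 4, Mrps6 without array 1 and Tmem50b without array 3. Sod1 and Son alone of the 8 remained under each of these. The median of the list was 0.08 without array 3 and between 0.12 and 0.18 without each of the others.

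The second question was what happened to genes of the lost Mmu12 segment, which Ts1Cje mice have in 1 copy, and to their neighbours. Dnah11, an axonemal dynein heavy chain of motile cilia, was 4.32 times as high in Ts1Cje cerebellum (95% interval 2.92 to 6.40). Its log2 ratios were 2.74, 1.65, 1.86 and 2.20, a mean of 2.11 ± 0.48 (SD, n = 4, limma, unadjusted p = 0.000192, adjusted p = 0.99). Every array was far above 0, in both dye orientations and in both directions of Xist. The other 4 listed genes did not pass the test. Sp4, a zinc finger factor of neurons, gave -0.13, 0.01, -0.51 and -0.38, and its mean of -0.25 had a 95% interval from -0.64 to 0.14. An even loss from 2 copies to 1, a log2 ratio of -1, lay outside that interval. Abcb5, a transporter, had a mean of -0.18 with values from -0.87 to 0.70. Sp8, another zinc finger factor, had values from -0.31 to 1.33 and Itgb8, an integrin subunit, from -0.48 to 1.75, each on 3 arrays. The 95% intervals were wide, from -0.92 to 0.56 for Abcb5, from -0.86 to 1.38 for Sp8 and from -1.09 to 1.76 for Itgb8. Each held 0, and that of Itgb8 also held -1.

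Cdca7l, a Myc-interacting nuclear protein whose gene abuts Dnah11 as printed above, gave 1.52, 0.64, 1.54 and 0.91. It averaged 1.15 ± 0.45 (SD, n = 4) or 2.22-fold (95% interval 1.53 to 3.24, limma, unadjusted p = 0.0027, adjusted p = 0.99). The arrays above 1.5 were array 1 and array 3, which differ in dye, and which were the 2 with a negative Xist ratio. Since the annotated ends of Cdca7l and Dnah11 overlap and the probes were not placed here, signal of one gene cannot be told apart from that of the other. The study reported Cdca7l and Sp4 as lower in Ts1Cje external granule layer at P0, measured on another platform. On the same-stage P0 arrays of the present platform, from whole cerebellum, Cdca7l gave 0.89, 2.08, 0.31 and 0.97. The cause of the opposite direction was not tested. Of the other neighbours, Ptprn2 and Ncapg2 had means of 0.05 and -0.12, and Vipr2, a receptor for vasoactive intestinal peptide, had values from -1.48 to 0.29 on 3 arrays.

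The genes with the same sign on all 4 arrays and the smallest p were taken next, 12 in each direction. First among the higher genes was 4930578N18Rik, a long noncoding RNA of Mmu16 at chr16:76122613-76156086, which is outside the segment in 3 copies. Its log2 ratios were 1.65, 1.47, 1.63 and 1.17, a mean of 1.48 ± 0.22 (SD, n = 4) or 2.79-fold (95% interval 2.13 to 3.65, limma, unadjusted p = 0.000169, adjusted p = 0.99). Along with it stood Dnah11, Cdca7l and Sod1. Serpini2, a serine protease inhibitor known from the pancreas, gave 1.77, 0.50, 1.51 and 1.35, a mean of 1.28. Olfr815, an odorant receptor gene, averaged 1.06 and Prnd, which encodes the prion-like protein doppel, 0.83. Serpinb6a, another protease inhibitor, averaged 0.83 and H1f3, a linker histone, 0.75. The remaining 3 (1700052H01Rik, Adprm and 1810010H24Rik) averaged between 0.72 and 0.79.

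Of the lower genes, Saa4, a serum amyloid A protein of lipoproteins, had the largest mean, -1.39, with -1.07, -1.19, -1.0 and -2.29. Array 4 stood apart there, and the mean without it was -1.09. Rspo2, a secreted activator of Wnt signalling, gave -0.71, -0.64, -0.98 and -1.33, a mean of -0.92 ± 0.32 (SD, n = 4). Gys2, the glycogen synthase of liver, gave -0.78, -1.39, -0.58 and -1.06, a mean of -0.95 ± 0.35. Pdgfrb, the receptor that marks pericytes, gave -0.99, -0.63, -0.50 and -0.46, a mean of -0.65 ± 0.24. Tlr5 and Klrd1, receptors of innate immunity, averaged -0.70 and -0.69, and Prkd2, a protein kinase, -0.61. Zbed5, Tfb1m, Mfsd13b, 2300003K06Rik and Tmem115 averaged between -1.01 and -0.64. None of the 24 passed the adjusted threshold, and genes chosen for the smallest p have estimates that are too large on average.

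**Figure D2:**
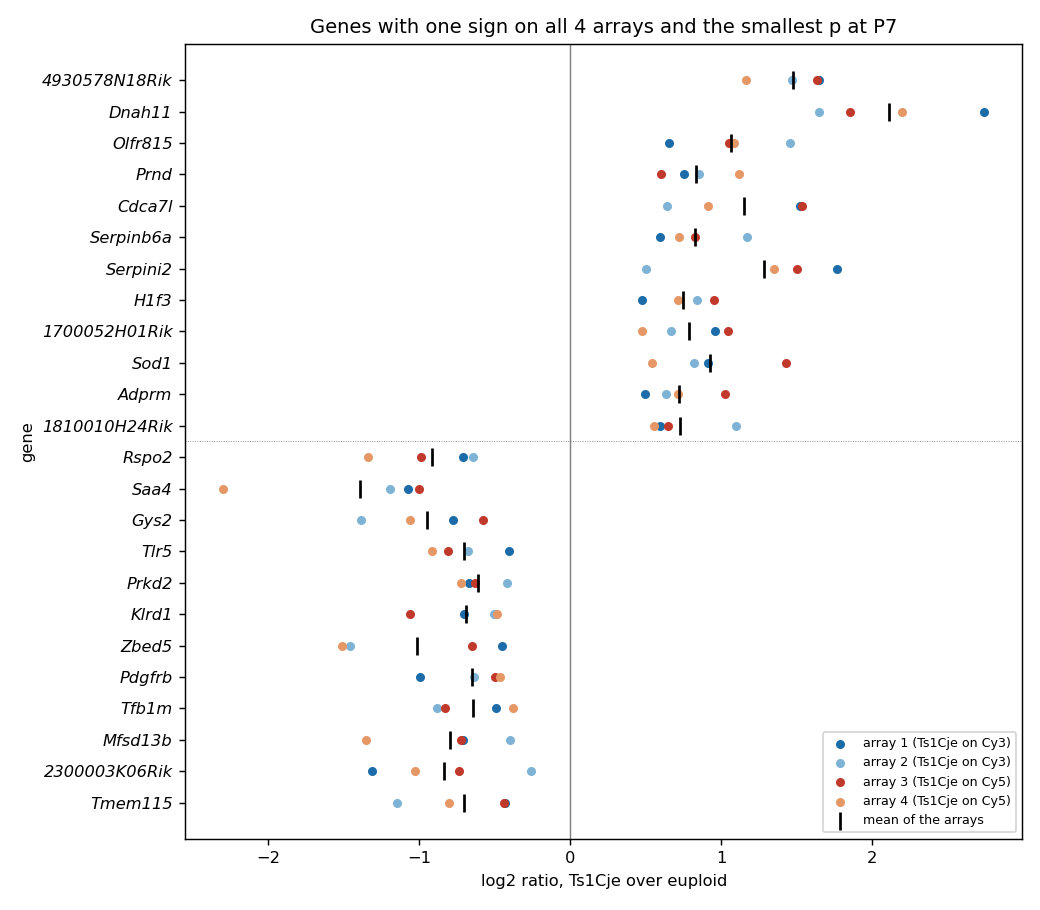
Log2 ratios (Ts1Cje over euploid, x axis) on each of the 4 P7 arrays for the 12 higher and 12 lower genes (y axis) that had one sign on every array and the smallest unadjusted p. Bars mark the means; Dnah11 and 4930578N18Rik lie farthest above 0 and Saa4 farthest below, where array 4 stands apart at -2.29.

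Other mice gave a second look at these genes. On 8 arrays a P7 mouse of one genotype had been set against a P3 or P10 mouse of the other, and a fit with 2 age terms gave the genotype difference in those mice, which is not a pure P7 value. One of these arrays had values for only 44.8% of the probes and a standard deviation of log2 ratios of 1.76. No gene passed an adjusted p below 0.05 in that fit (limma, smallest adjusted p = 0.96), and 3.72% of the 20220 genes tested had an unadjusted p below 0.05. Of the 12 higher genes, 8 could be tested there, 6 of the 8 were above 0, and 4 had an unadjusted p below 0.05, a call made in the higher direction for 1.96% of all genes. These were Sod1 (0.68), 4930578N18Rik (0.76), Dnah11 (1.33) and Cdca7l (0.75), and none of them passed the adjusted threshold. Olfr815 (-0.36) and Adprm (-0.07) had the opposite sign. Of the 12 lower genes, 8 could be tested, 7 were below 0 and 0 had an unadjusted p below 0.05, a call made in the lower direction for 1.76% of genes. Over all 19324 genes tested in both sets of mice, 50.9% had the same sign in both. Of the 402 with an unadjusted p below 0.05 at P7, 53.2% had the same sign.

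The three-copy genes had a median of 0.14 in these other mice too, with 48 of 65 above 0 (73.8%, against 49.4% of all genes). Of the 8 three-copy genes named for P7, 7 were above 0, and Sod1 and Atp5o (0.55) passed the unadjusted threshold. Tmem50b gave 0.78 and Son 0.31. Mrps6, evenly positive on the P7 arrays, gave -0.03.

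P7 was then set against the other stages in a fit of the 16 arrays whose 2 mice had the same age, with 4 arrays at each of P0, P3, P7 and P10. No gene differed between P7 and the mean of the other stages at an adjusted p below 0.05 (limma, smallest adjusted p = 0.72), and 2.08% of 22006 genes did so unadjusted (1.1% higher and 0.982% lower at P7). Among 73 three-copy genes, 0 passed the unadjusted threshold in either direction. The list medians were 0.26, 0.14, 0.15 and 0.13 at P0, P3, P7 and P10. Sod1 averaged 0.72 at P0, 0.61 at P3, 0.93 at P7 and 1.30 at P10, where 1 array gave 3.13. That P10 array had values for only 66.7% of the probes and a standard deviation of log2 ratios of 1.42. The difference of Sod1 between P7 and the other stages was 0.05 ± 0.38 (SE). For Son the difference was 0.38 ± 0.28 (SE) and for Dnah11 0.52 ± 0.42 (SE), neither past the unadjusted threshold. 4930578N18Rik averaged 1.06 at P0, 0.42 at P3, 1.48 at P7 and 0.46 at P10, a difference of 0.83 ± 0.46 (SE, unadjusted p = 0.090 by limma). Its P7 values, by which it was chosen, ran from 1.17 to 1.65, while its P10 values ran from -1.66 to 1.89. The -1.66 came from the same P10 array as the 3.13 of Sod1. Get1 had the largest positive difference of the 8 three-copy genes, 0.83 ± 0.39 (SE, unadjusted p = 0.053 by limma).

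**Figure D3:**
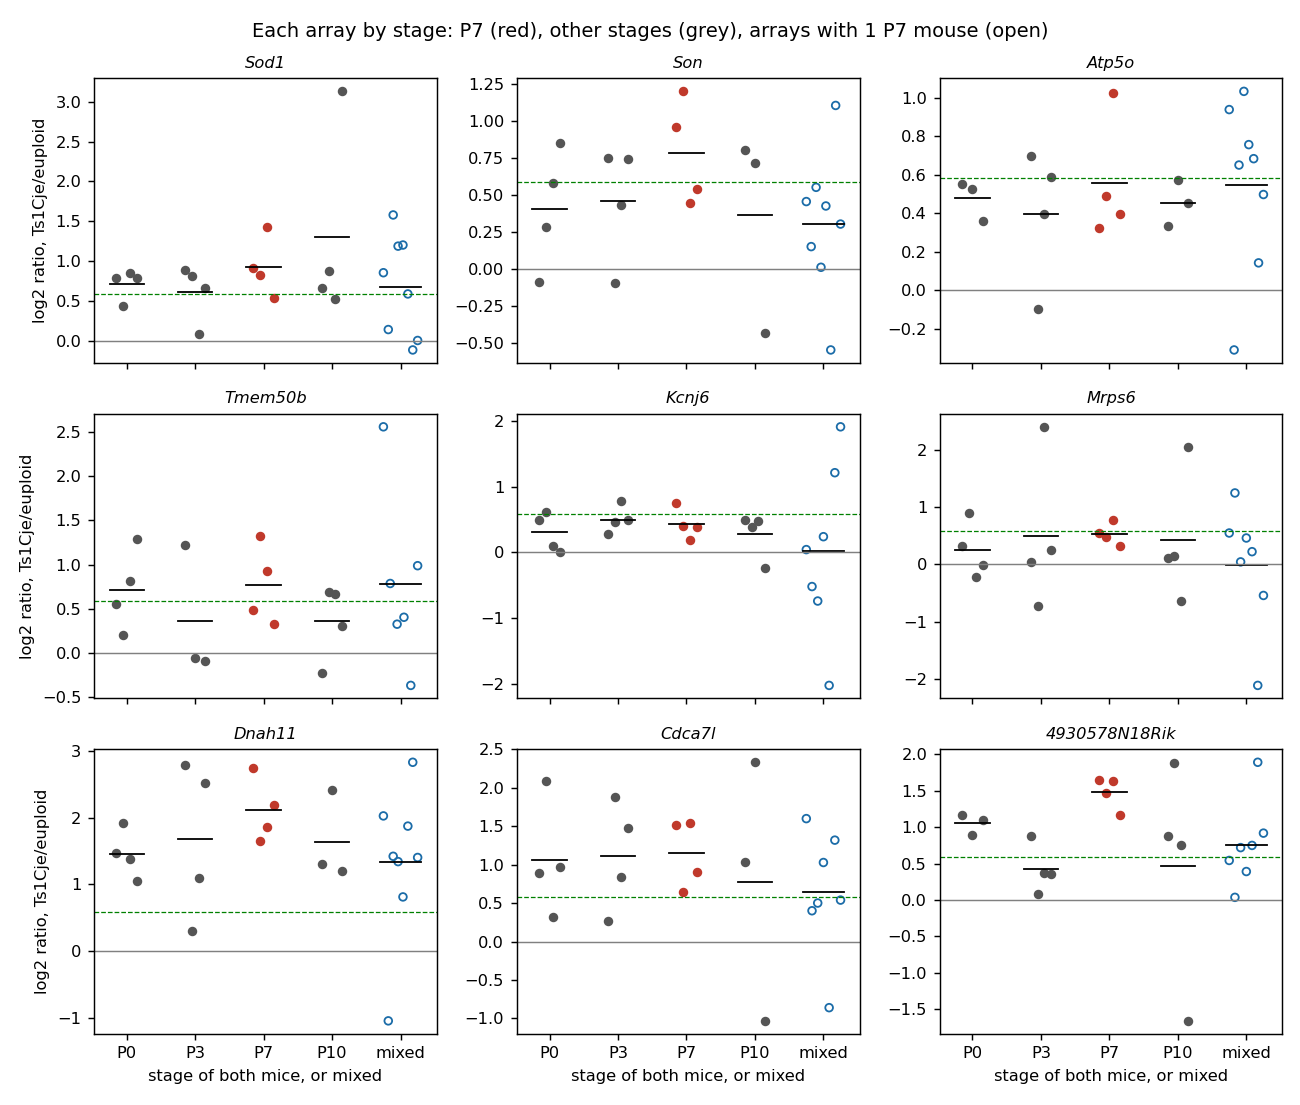
Log2 ratio (Ts1Cje over euploid, y axis) of each array for 9 genes at P0, P3, P7 and P10, and on the 8 arrays that pair a P7 mouse with a P3 or P10 mouse of the other genotype (mixed, x axis). Black bars are means and the dashed line is 0.58. All P7 values (red) are above 0 in each gene, and the genes were chosen from the P7 results, which favours this. Single arrays of other stages and of the mixed set, not used for the choice, fall below 0 in most of these genes.

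Some of the genes farthest from the other stages rested on few values. Olfr61, an odorant receptor gene, had a value on 2 P7 arrays only, -2.34 and -2.82, against means of -0.99, 1.55 and 0.64 at P0, P3 and P10, a difference of -2.98 ± 0.42 (SE, unadjusted p = 4.1e-05, adjusted p = 0.72 by limma). Rdh16, a retinol dehydrogenase, gave -1.41, -1.04 and -1.55 on 3 P7 arrays, and its means were 0.40, 0.78 and 0.80 at P0, P3 and P10. Cobl, an actin nucleator, had 2 P7 values, -2.65 and -1.35. Azin2, an inhibitor of antizyme in polyamine metabolism, gave -0.05, -0.58, -0.86 and -0.72, all below 0, and Snrnp35 owed its place to a single P0 array at 4.27. Above the other stages stood Rxfp1, the relaxin receptor (0.63, 1.49, 1.24 and -0.24 at P7, with 1 value at P3 of -3.96). Cypt12, Serpinb9b, 7420700N18Rik and Gstm4 followed, of which Gstm4 had 1 value at P10 of -2.72. Their differences were between 1.32 and 2.64.

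A set of genes that the study lists as changed at every stage was looked at in the same P7 arrays. That list was drawn from these samples, so its direction here is not independent evidence. Of its 13 genes, 11 were found on the array by symbol and 9 could be tested. Among those not found was 1700021N20Rik, which the study reports as lower at P7. All 9 genes tested were above 0 on every array, with a median over genes of 0.58, and 8 had an unadjusted p below 0.05. Besides Sod1, Son, Atp5o, Kcnj6 and Dnah11 the list holds genes of other chromosomes. Phtf1, a membrane protein of testis, gave 0.75, 0.63, 0.41 and 0.37, a mean of 0.54 ± 0.18 (SD, n = 4). Hsfy2, a heat shock factor-like protein, gave 0.66, 0.98, 0.24 and 0.43, and Bpifb6, a lipid-binding protein, 0.37, 0.72, 0.14 and 0.56. Vmn1r216, a vomeronasal receptor gene, gave 0.67, 0.04, 1.40 and 0.40, which did not pass the test. Ifngr2, a three-copy gene of this list, had 2 P7 values, 0.58 and 0.27.

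Cell types and pathways of the growing cerebellum were described by 25 lists of genes. Over these lists 7 genes had an unadjusted p below 0.05 (2.51% of all genes tested did) and 0 an adjusted one. In none of the lists did more than 1 gene pass the unadjusted threshold in either direction, and list medians lay between -0.10 and 0.17. Of 38 cell cycle genes, 25 were above 0 with a median of 0.09 and 0 passed. Tpx2, a spindle assembly factor, gave 0.28, 0.27, 0.08 and 0.35. Of 14 granule cell precursor genes 9 were above 0 and 0 passed, and the 22 granule neuron genes were split evenly with 11 above 0. Gabra6, the receptor subunit that marks maturing granule cells, gave 0.10, -0.80, -1.34 and -0.27, which did not pass. The 21 Purkinje cell genes had a median of -0.04 and the 17 genes of the Sonic hedgehog pathway one of -0.03, with 0 passing in both.

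Notch signalling keeps neural precursors undifferentiated, and of its 23 genes tested, Notch1 alone passed the unadjusted threshold. This receptor gave 0.38, 0.62, 0.76 and 0.15, a mean of 0.48 ± 0.27 (SD, n = 4, unadjusted p = 0.031, adjusted p = 0.99 by limma), but -0.70 in the 8 arrays of other mice (unadjusted p = 0.030 by limma). Nrarp, a target and inhibitor of Notch, gave 0.26, -0.92, -0.94 and -1.06. In the respiratory chain, with 68 genes and a median of 0.01, Ndufv1 of complex I averaged 0.65 and Uqcrq of complex III -0.61, and those 2 passed unadjusted. Of 16 two-copy genes that the study had chosen for PCR, 4 were above 0 (48.0% of all genes tested were) with a median of -0.14, and 0 passed. The 71 ribosomal protein genes had a median of 0.02 and 0 passed.

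Among glia, 16 of 21 astrocyte and Bergmann glia genes lay above 0 (48.0% of all genes tested did) with a median of 0.13 and 0 passed. Their medians on arrays 1 to 4 were 0.21, 0.12, 0.24 and 0.02, all above 0. Of 16 microglia genes 2 lay above 0 with a median of -0.10, and 0 passed. The single arrays gave microglia medians of -0.13, -0.13, -0.27 and 0.05, so the sign was not the same on array 4. Oligodendrocyte genes had a median of 0.03. Markers of tissue that a dissection could carry along were looked at in the same way. Brainstem and forebrain genes (17 tested, 12 above 0) had medians of 0.19, 0.73, -0.03 and -0.01 on arrays 1 to 4, highest on array 2. In the choroid plexus list Slc4a5 (0.73) passed unadjusted, in the meninges list Aldh1a2 (0.60), in the erythroid list Alas2 (-0.53) and in the endothelium and pericyte list Pdgfrb, 1 gene each of 10, 16, 8 and 16 (over all genes tested, 1.48% passed in the higher and 1.02% in the lower direction). The part of such tissue in the results was not tested.

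**Figure D4:**
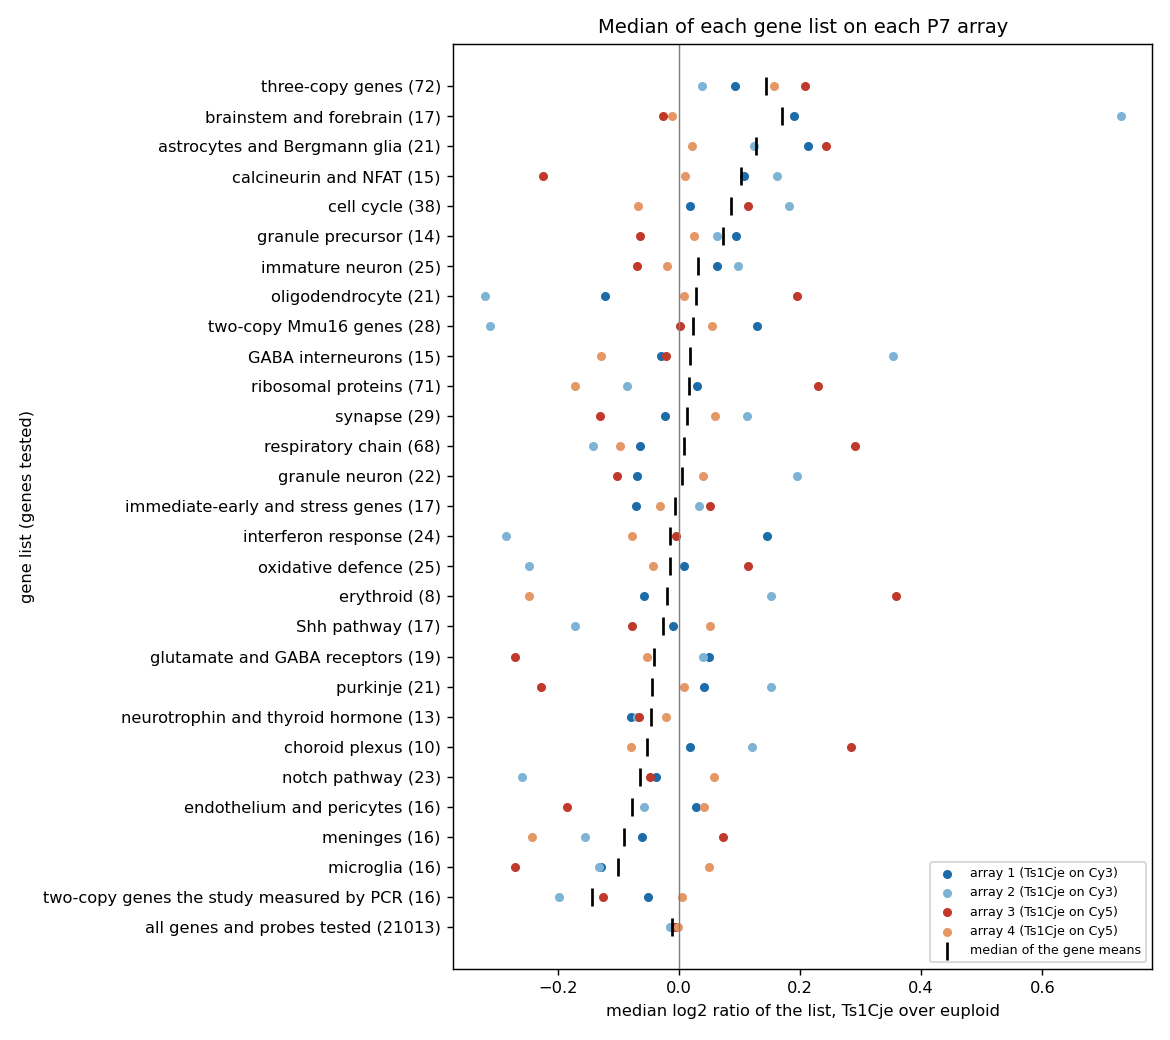
Median log2 ratio (Ts1Cje over euploid, x axis) of each gene list (y axis, with the number of genes tested) on each P7 array, coloured points, and over the gene means, black bars. The three-copy genes and the astrocyte and Bergmann glia genes have medians above 0 on all 4 arrays. The neurotrophin and thyroid hormone genes have medians below 0 on all 4 (-0.08, -0.07, -0.07 and -0.02). Most lists of cell types and pathways have arrays on both sides of 0.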

How the data were processed

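Cerebellar RNA was hybridised to two-colour spotted arrays. Each deposited value is a log2 ratio (Cy5 over Cy3). Starting from median pixel intensities less background, the authors applied a local LOWESS within every array and excluded control, irregular and dim spots. Dim genes can therefore be missing and ratios shrunk. Of 25344 probes, 20626 had a gene symbol, and 258 copies of a control symbol were left out. Ratios were turned to Ts1Cje over euploid and averaged by symbol. Tests used limma 3.58.1 in R 4.3.3 with Benjamini-Hochberg adjustment at 0.05, on genes with a value on at least 3 of the 4 arrays, 8 of 16 (and 2 at P7) or 6 of 8. The fit was tested on simulated data. Plots were drawn with matplotlib 3.10.9.

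Genes named are those with the smallest p and one sign on every array (12 per direction), those farthest from the other stages (5 per direction), the copy number genes, and up to 4 per list. Members and lists were chosen with earlier results of these data known. The number of arrays limits the precision, and no counts underlie the ratios. Mice were individual animals. Litters are not tied to arrays in the labels and were not used here, so p-values measure the spread between these samples. Array 4 was kept at P7 by its source name. The alternatives were a dye term, array weights, both together, an Xist covariate, equal array spread, no moderation, other rules for missing values, single probes, the 16 same-stage arrays, the ANOVA of the methods on 28 arrays, and leaving out each array.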

Additional observations from a re-analysis of the deposited data

Results flagged for a closer look

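A screen of named genes flagged 3 with 1 P7 array far from the other 3. Chance gives such a distance in about 1 of 20 groups. The flagged genes were Saa4 (array 4 at -2.29), Dscam (array 2 at -2.75) and Nrarp (array 1 at 0.26). The screen did not list 2310043M15Rik, which also had 1 array apart (array 2 at 4.17). Many genes were screened, so a few such flags are what chance gives, and these are not read as more. The median of the 4 genes beside the lost Mmu12 segment was -0.66 on array 2, apart from the other arrays.

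Other genes had one sign on every P7 array with a value and the other sign on every array of another stage. Most of them were named for their P7 values or for their distance from the other stages. That choice favours such a contrast, and its share over all genes was not counted. The difference between those stages was not tested. Prnd (P7 mean 0.83), 1700052H01Rik (0.79), Adprm (0.72) and Azin2 (-0.55) were opposite at P0, Tpx2 (0.24) at P0 and P3, and Cypt12 (1.77) at P3. Serpinb9b (0.91), Olfr61 (-2.58) and Rdh16 (-1.34) were opposite at P3 and P10, and Cobl (-2.002) at P0 and P10. Each stage compared here had 2 to 4 values.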

How the results depend on the processing

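No gene passed an adjusted p below 0.05 under any alternative, with or without any array (limma). The number with an unadjusted p below 0.05, 527 at P7, was 324 in the fit of the 16 same-stage arrays and 803 with dye term and array weights together, an alternative chosen after seeing the data, as was the Xist covariate (669). It lay between 573 and 641 when each array was left out. The higher direction held 59.2% of these calls, but 48.4% without moderation, 49.9% in the ANOVA of the methods and 49.3% without array 2. The number of three-copy genes called higher, 8, lay between 5 and 9 when each array was left out, and was 12 at most elsewhere, with array weights. Their median lay between 0.08 and 0.18 when each array was left out, was 0.16 for the 51 genes tested that the study lists in 3 copies, and 0.14 for protein-coding members. For P7 against the other stages the unadjusted count, 458, was 810 with arrays scaled to the same spread and between 302 (without array 2) and 505 without each array. Of 951 values of named genes under alternatives, 943 kept their direction and 8 were reversed. Many of these genes were chosen for one sign on all 4 P7 arrays, which leaving out or weighting an array cannot reverse. Under such alternatives their direction was fixed in advance, so the count is no measure of robustness. The cause of the 8 reversals was not tested. Dscam was 0.19 by the probe with values on more arrays, and between -0.93 and 0.12 without each array (0.12 without array 2). Sp4 (0.067) and Notch1 (-0.12) were reversed in the ANOVA of the methods. Sp8 was -0.027 with array weights and between -0.28 (without array 2) and 0.54 without each array. Abcb5 lay between -0.47 and 0.048 (without array 4), and Itgb8 between -0.37 (without array 3) and 0.75. At P7, 7 named genes had an unadjusted p below 0.05 in every fit that gave a value: 4930578N18Rik, Dnah11, Cdca7l, Sod1, Son, Serpini2 and Gys2. Most of these were named for their small p on these same arrays, and most of the fits use those arrays again. That choice favours such a result, and its share over all genes was not counted. No paired analysis was possible because replicate numbers follow accession order only; each ratio already sets 1 Ts1Cje mouse against the euploid mouse of its array.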
